A study of Homo sapiens with 3 samples.

Results

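ATP-binding cassette (ABC) transporters of sterols and drugs were examined as 10 member genes out of 19775 genes named on the array. The genes were ABCA1, ABCA3, ABCA5, ABCB1, ABCC1, ABCC2, ABCC3, ABCC4, ABCG1 and ABCG2. Every probe set that the platform annotation gives to one of them alone was taken, which made 26 probe sets. They were chosen with their values in these same arrays already known, so every value below is a description and none was tested. The data are 3 Affymetrix arrays of PANC-1, an established human cell line of pancreatic ductal adenocarcinoma. Each array holds total RNA of 1 stable line, expressing wild-type JMJD3, expressing mutant JMJD3, or carrying the blank MSCV vector (control), and no line received further treatment. All 3 lines share the PANC-1 background, and the labels give neither the mutation nor whether a line is a clone or a pool. With 1 array per line there is no replicate error, so a difference between arrays cannot be told apart from a difference between cultures or hybridisations.

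ABC transporters use ATP to move lipids, metabolites and drugs across membranes. ABCA1 and ABCG1 pass cholesterol and phospholipid from cells to apolipoprotein and lipoprotein acceptors, and their genes are textbook targets of the oxysterol-sensing liver X receptors (LXR), which bind DNA together with RXR. ABCB1 (P-glycoprotein), ABCG2 and several ABCC pumps expel chemotherapeutic drugs and conjugates, and are known for drug resistance in carcinoma cells. JMJD3, the protein of KDM6B, is a demethylase of a repressive methyl mark on histone H3.

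Promoter sequence is shown for ABCA1 and ABCB1, which lay on opposite sides of control in the mutant JMJD3 array. Both are the 250 bases before an annotated transcript start from RefSeq (GRCh38.p14), written on the strand of the gene. ABCA1 lies at chr9:104928156-104928405, minus strand, and ABCB1 at chr7:87600885-87601134, minus strand. Capitals mark a loose form of the LXR and RXR direct repeat (GGTNA and GGTCA with 5 bases between them), the E-box CACGTG and the CCAAT box, each searched on both strands.
ABCA1: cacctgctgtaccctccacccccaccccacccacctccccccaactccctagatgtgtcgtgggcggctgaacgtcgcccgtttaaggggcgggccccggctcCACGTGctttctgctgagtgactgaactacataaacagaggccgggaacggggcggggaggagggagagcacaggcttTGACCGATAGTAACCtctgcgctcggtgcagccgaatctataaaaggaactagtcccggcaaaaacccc
ABCB1: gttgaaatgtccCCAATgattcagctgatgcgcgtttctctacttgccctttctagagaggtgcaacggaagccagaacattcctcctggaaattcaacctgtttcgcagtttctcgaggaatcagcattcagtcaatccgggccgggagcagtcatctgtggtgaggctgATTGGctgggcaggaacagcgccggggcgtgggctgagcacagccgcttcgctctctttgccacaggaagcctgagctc

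In the ABCA1 window the direct repeat matched on the opposite strand from -69 to -55 relative to the start, and the E-box lay from -147 to -142. The direct repeat occurred in 0.216% of 35116 RefSeq promoter windows of the same length, and in 1 of the 12 windows held for the transporter genes. The E-box occurred in 6.34% of all windows and in 3 of those 12, of which 2 were overlapping windows of ABCG2. The ABCB1 window had a CCAAT box from -238 to -234 and an inverted one from -79 to -75. CCAAT was in 32.0% of all windows, and within the 12 only in that ABCB1 window. The GC box GGGCGG was in 42.6% of all windows and in 5 of the 12, and the antioxidant response core TGANNNNGC in 35.2% and in 8. The same 2 overlapping ABCG2 windows are among the 5 and among the 8, and further ABCG2 windows are among the 8. These are counts of windows and not of separate genes. The table matched 7 of the 10 genes, with no window for ABCC1, ABCC3 and ABCG1. A match is a string of letters and not a bound site.

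The deposited values were log2 signals, with medians of 5.48 in the wild-type JMJD3 array, 5.49 in the mutant JMJD3 array and 5.50 in control. Signals at or under the pooled median of all arrays (log2 5.48) were set to that floor, because no detection calls were used. A gene counted as measured in a comparison if at least 1 of its arrays was over the floor. Differences are log2 signals of one array minus those of the other after flooring, folds are 2 raised to them, and the call used is 2-fold. A fold is written as at least N-fold if one of its arrays lay at the floor. Each gene was represented by its probe set of highest mean signal. Probe sets whose names end in _s_at or _x_at share probes with other transcripts. KDM6B, the introduced gene, read log2 6.73 in the wild-type JMJD3 line, 6.45 in the mutant JMJD3 line and 5.53 in control at probe set 1556067_a_at. Its brightest probe set, 41387_r_at, read 7.66, 7.65 and 7.60 in the same order. Of its other probe sets, 1556066_at read 6.75, 6.51 and 6.02, and 41386_i_at read 6.99, 6.88 and 6.99. Probe set 213146_at was under the floor, at 5.12 in all arrays. Of 8 ductal and simple epithelial markers, 7 were over the floor in all arrays, and CDH1 (E-cadherin) was under it in all, at 4.62. All 3 mesenchymal markers were over it in all arrays. Over the floor in any array were 0 of 3 acinar, 0 of 4 endocrine and 0 of 3 leukocyte markers, 1 of 3 hepatocyte markers (TTR) and 1 of 3 endothelial markers (PECAM1). The epithelial markers did not share a direction. In the wild-type JMJD3 line 5 of the 8 were above control and 2 below, and in the mutant JMJD3 line 3 were above (KRT19, SOX9 and EPCAM) and 4 below (KRT7, KRT8, KRT18 and MUC1), with CDH1 level in both. The log2 of their summed signal was 14.23 in the wild-type JMJD3 line and 13.49 in the mutant JMJD3 line, against 14.05 in control. KRT19 was at 8.0 and 7.73 in wild-type and mutant JMJD3, against 5.55 in control, while KRT8 was at 11.97 and 10.67, against 11.76. The mesenchymal sum was 13.44 and 13.54, against 13.39, and within it FN1 (fibronectin) was at 8.31 and 10.05, against 7.58. ZEB1 was at 8.68 and 9.84, against 9.36, and so below control in the wild-type JMJD3 line. VIM (vimentin), by far the brightest of them in every array, was nearly level at 13.34 and 13.28, against 13.27. The part of these marker differences in the transporter values was not tested.

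The sterol transporter ABCA1, which loads cholesterol onto apolipoprotein A-I, was highest in the mutant JMJD3 line and lowest in the wild-type JMJD3 line. At probe set 203505_at it read log2 4.79 in the wild-type JMJD3 line, 8.07 in the mutant JMJD3 line and 6.59 in control. The wild-type array lay under the floor, and the other two lay over it. Wild-type JMJD3 was at least 2.16-fold lower than control and at least 6.02-fold lower than mutant JMJD3, while mutant JMJD3 was 2.79-fold higher than control. Probe set 203504_s_at gave the same order, at 3.67 in the wild-type JMJD3 line, 7.39 in the mutant JMJD3 line and 5.51 in control. Because control was only just over the floor there, the bound for wild-type JMJD3 against control was 1.02-fold, although the unfloored differences of these probe sets were -1.84 and, at 203505_at, -1.80. The remaining probe sets, 216066_at and 1570279_at, were under the floor in every array, between 3.54 and 4.57. With the floor raised to the 60th percentile the bound for wild-type JMJD3 against control was -0.42. An offset in place of the floor gave -0.96, and both were under 2-fold. With the median over its 4 probe sets, control and wild-type JMJD3 lay under the floor. Mutant JMJD3 was then at least 0.20 over control, and wild-type JMJD3 at least 0.20 under mutant JMJD3.

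ABCG1, a sterol exporter to high-density lipoprotein, stood out in the mutant JMJD3 array alone. Probe set 204567_s_at read log2 5.72 in the wild-type JMJD3 line, 8.21 in the mutant JMJD3 line and 5.37 in control, so control was under the floor and wild-type JMJD3 slightly over it. Mutant JMJD3 was at least 6.63-fold higher than control. Wild-type JMJD3 was 5.62-fold lower than mutant JMJD3 and at least 1.18-fold higher than control. The other probe sets had the same shape. Probe set 211113_s_at read 5.76, 6.88 and 5.73 in wild-type JMJD3, mutant JMJD3 and control, and 232081_at read 4.15, 6.70 and 4.03. Probe set 230913_at read 4.23 in the wild-type JMJD3 line, 6.84 in the mutant JMJD3 line and 3.51 in control. All 4 probe sets of ABCG1 were thus higher by 2-fold or more in mutant JMJD3 than in control, from 2.22-fold to at least 6.63-fold. Of all 23162 probe sets measured in that comparison, 2.95% were higher by 2-fold. Control was under the floor at 232081_at, so the floored difference of 1.22 there is a lower bound, as is 2.73 at the brightest one. Without the floor the differences from control were 2.67 at 232081_at, 3.33 at 230913_at, 2.84 at 204567_s_at and 1.15 at 211113_s_at.

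**Figure D1:**
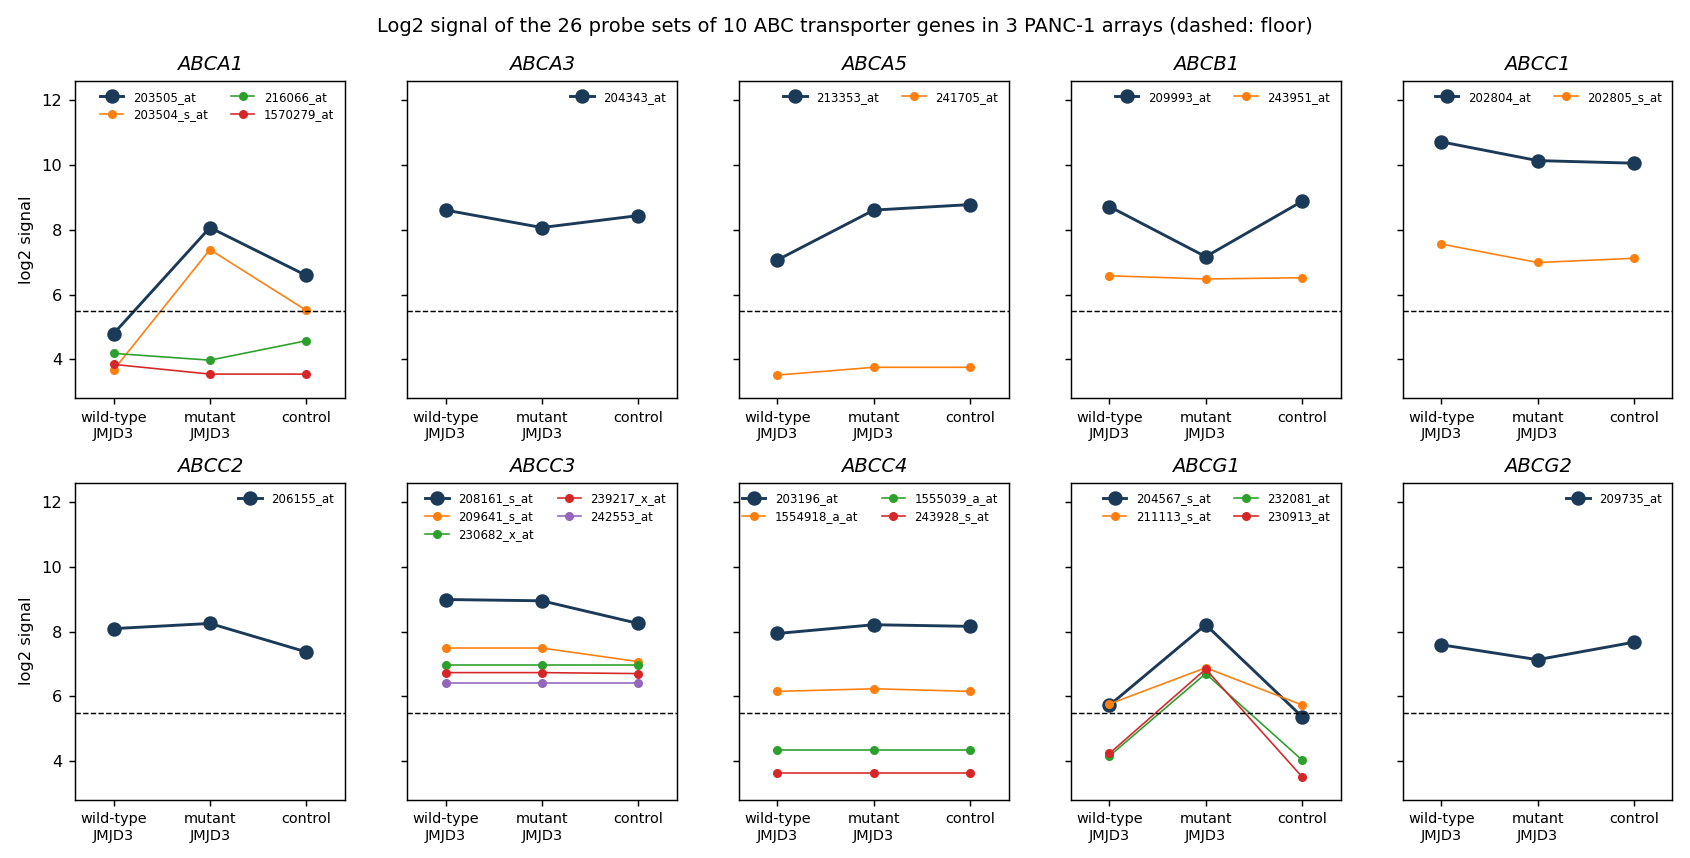
Log2 signal of all 26 probe sets (y axis) in the wild-type JMJD3, mutant JMJD3 and control arrays (x axis), in a panel for each gene. The thick dark line is the brightest probe set, thin lines are the others, the lines join arrays only to guide the eye, and the dashed line is the floor at 5.48. All 4 ABCG1 probe sets and the upper 2 of ABCA1 peak in the mutant JMJD3 line, ABCA5 is lowest in the wild-type JMJD3 line and ABCB1 in the mutant JMJD3 line.

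ABCA5, a lipid transporter of endosomal and lysosomal membranes, was low in the wild-type JMJD3 line only. Probe set 213353_at read log2 7.07 in the wild-type JMJD3 line, 8.61 in the mutant JMJD3 line and 8.78 in control, all over the floor. Wild-type JMJD3 was 3.27-fold lower than control and 2.91-fold lower than mutant JMJD3, and mutant JMJD3 was 1.13-fold lower than control. The other probe set, 241705_at, was under the floor in every array, at 3.51, 3.75 and 3.75. Averaging it in by the median put wild-type JMJD3 under the floor. The differences of wild-type JMJD3 were then bounds, -0.79 against control and -0.70 against mutant JMJD3. ABCA3, which fills the lamellar bodies of lung cells with surfactant phospholipid, read 8.61 in the wild-type JMJD3 line, 8.07 in the mutant JMJD3 line and 8.44 in control at its only probe set. Its differences stayed under 2-fold, the widest being 1.45-fold higher in wild-type JMJD3 than in mutant JMJD3.

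The drug efflux pump ABCB1 was low in the mutant JMJD3 line. Probe set 209993_at read log2 8.72 in the wild-type JMJD3 line, 7.17 in the mutant JMJD3 line and 8.88 in control. Mutant JMJD3 was 3.27-fold lower than control, and wild-type JMJD3 was 2.93-fold higher than mutant JMJD3 and 1.12-fold lower than control. A probe set that the annotation gives to both ABCB4 and ABCB1, 209994_s_at, read 8.43, 6.91 and 8.46 in wild-type JMJD3, mutant JMJD3 and control. It was not counted as a probe set of ABCB1, and at its own probe sets ABCB4 was under the floor in all arrays, at 4.62 or less. The second ABCB1 probe set, 243951_at, was nearly level and read 6.58, 6.48 and 6.52. With the median over the 2 probe sets the difference of mutant JMJD3 from control was -0.88, and that of wild-type JMJD3 from mutant JMJD3 was 0.83, both under 2-fold.

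ABCG2, the breast cancer resistance protein, was lowest in the same array but by less. It read log2 7.59 in the wild-type JMJD3 line, 7.13 in the mutant JMJD3 line and 7.67 in control, so that mutant JMJD3 was 1.45-fold lower than control. Its only probe set, 209735_at, was 1.06-fold lower in the wild-type JMJD3 line than in control. Neither value reached 2-fold.

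Among the ABCC genes, which encode multidrug resistance-associated proteins, none differed by 2-fold in any comparison. ABCC2, the apical pump of glutathione and glucuronide conjugates, read log2 8.09 in the wild-type JMJD3 line, 8.25 in the mutant JMJD3 line and 7.37 in control. It was 1.65-fold higher in the wild-type JMJD3 line and 1.84-fold higher in the mutant JMJD3 line than in control, which puts both arrays above control at its only probe set, 206155_at. ABCC3, a basolateral pump of conjugates and bile salts, was likewise above control in both, at 8.99 in the wild-type JMJD3 line and 8.95 in the mutant JMJD3 line against 8.25 in control (208161_s_at). These are 1.67-fold and 1.62-fold. Probe set 209641_s_at gave 7.49 in both JMJD3 arrays and 7.07 in control. The other 3 probe sets of ABCC3 were level: 230682_x_at read 6.96 and 242553_at 6.40 in all arrays, and 239217_x_at read 6.73 in both JMJD3 arrays and 6.70 in control. The higher ABCC3 values thus came from shared probe sets, and without them the difference was 0.00 in both comparisons.

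ABCC1, a pump of drugs and glutathione conjugates, was highest in the wild-type JMJD3 line. Probe set 202804_at read log2 10.72 in the wild-type JMJD3 line, 10.14 in the mutant JMJD3 line and 10.06 in control, 1.58-fold higher in wild-type JMJD3 than in control. Probe set 202805_s_at read 7.56, 6.99 and 7.12, again highest in the wild-type JMJD3 line, while the 2 probe sets put mutant JMJD3 on opposite sides of control. ABCC4, which exports cyclic nucleotides and prostaglandins, read 7.94, 8.21 and 8.16 at 203196_at and 6.15, 6.23 and 6.15 at 1554918_a_at. Its remaining probe sets, 1555039_a_at at 4.35 and 243928_s_at at 3.64, held 1 value in all arrays. Identical values in all 3 arrays were found for 4 of the 26 probe sets (15.4%), beside 21.0% of all 54613 probe sets. The processing notes do not say how that arose, and a difference of 0.00 does not show equal transcript levels.

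All 10 genes were over the floor in at least 1 array, as were 21 of the 26 probe sets. With wild-type JMJD3 against control, 0 of the 10 genes were higher and 2 (ABCA1 and ABCA5) were lower by 2-fold or more, beside 0.953% higher and 1.31% lower among 12697 measured genes. Their median difference was 0.05, with 5 above and 5 below control, and the median of all measured genes was 0.05. ABCA5 had rank 7 from the lowest and ABCA1, as a bound, rank 95. Closest to the 2-fold line were ABCA1 inside it at -1.11 and ABCC3 outside it at 0.74.

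With mutant JMJD3 against control, 2 genes (ABCA1 and ABCG1) were higher and 1 (ABCB1) was lower by 2-fold or more, where 2.98% of 12707 measured genes were higher and 0.535% lower. The median of the 10 was 0.07, with 6 above and 4 below control, and that of all genes was 0.00. ABCG1 had rank 7 from the highest and ABCB1 rank 3 from the lowest. ABCA1 had rank 104 from the highest. ABCA1 lay nearest the 2-fold line inside it at 1.48, and ABCC2 outside it at 0.88.

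With wild-type JMJD3 against mutant JMJD3, 1 gene (ABCB1) was higher and 3 (ABCA1, ABCG1 and ABCA5) were lower by 2-fold or more, where 2.61% of 12829 measured genes were higher and 6.2% lower. The median was -0.06, beside 0.00 for all measured genes. ABCA1 had rank 11 and ABCG1 rank 13 from the lowest, and ABCA5 rank 158, while ABCB1 had rank 51 from the highest. Here ABCA5 was nearest inside the line at -1.54 and ABCC1 nearest outside at 0.58. The genes were chosen with these contrasts known, so nothing is read from the counts. The comparisons share arrays, and a value such as the mutant signal of ABCA1 enters more than 1 of them.

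**Figure D2:**
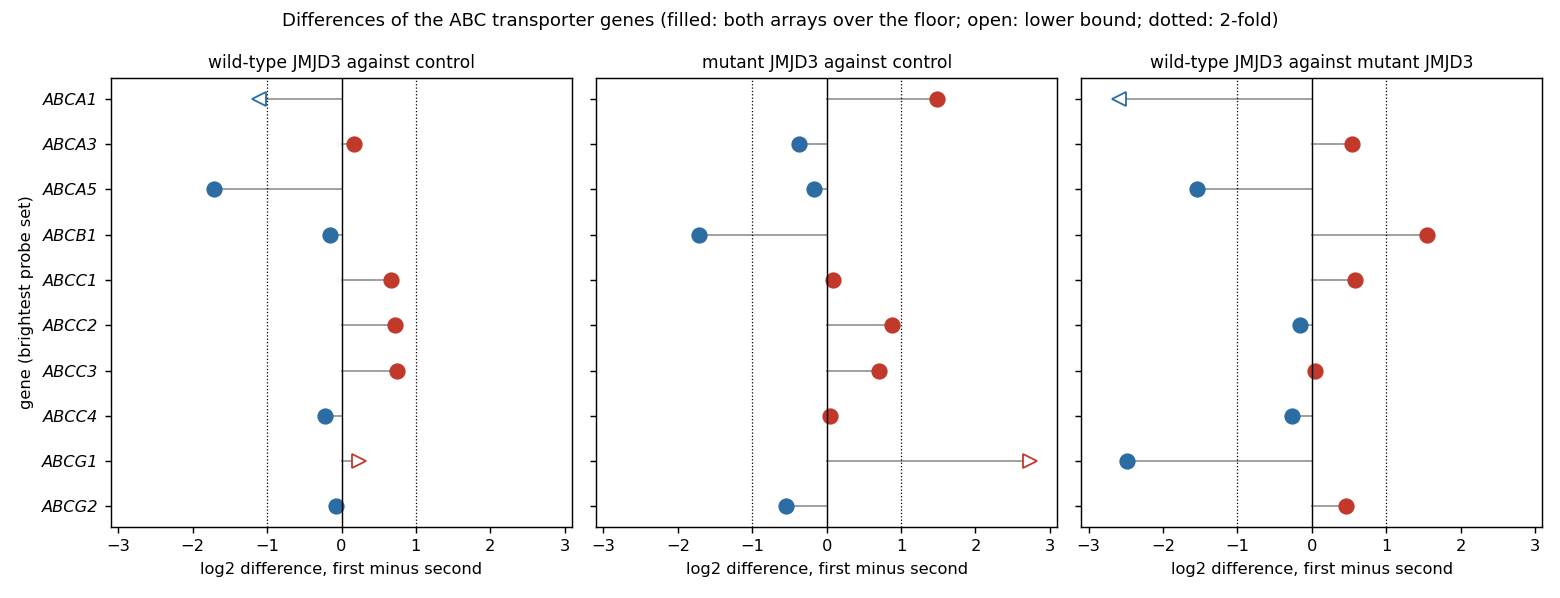
Floored log2 difference of each gene at its brightest probe set (x axis, first array minus second) in the 3 comparisons, with the genes on the y axis. Filled circles have both arrays over the floor, open triangles are lower bounds, and dotted lines mark 2-fold. ABCA1 (at least 6.02-fold) and ABCG1 (5.62-fold) are lowest in wild-type JMJD3 against mutant JMJD3, with ABCB1 on the opposite side.

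**Figure D3:**
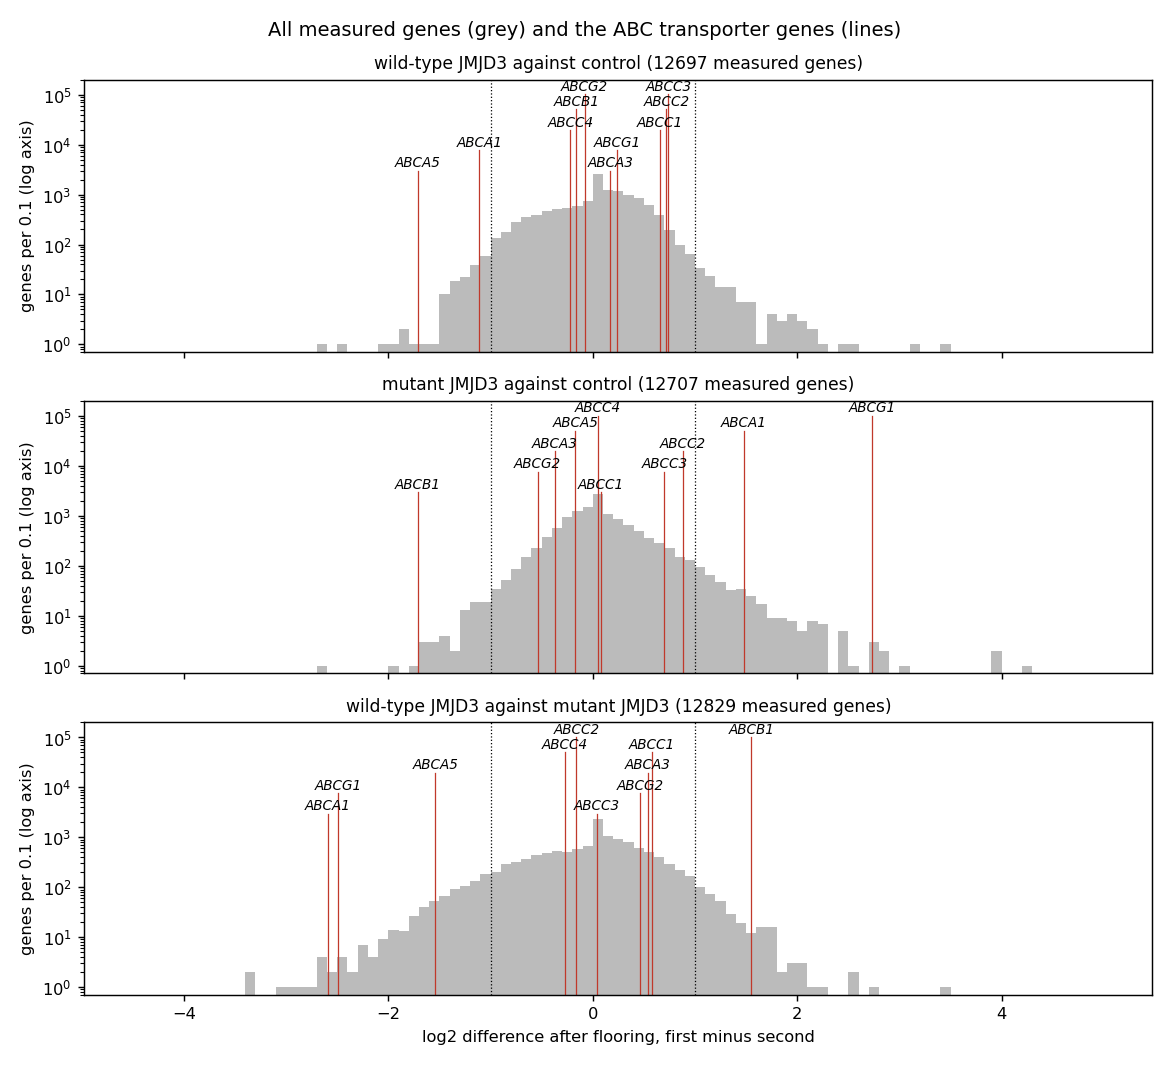
Histograms of the floored log2 differences of all measured genes (grey, number of genes per bin of 0.1 on a log axis) with a line for each of the 10 transporter genes, whose height only separates the labels. ABCA5 (-1.71 with wild-type JMJD3 against control) and ABCB1 (-1.71 with mutant JMJD3 against control) lie in the lower tails, and ABCG1 (2.73) in the upper tail of the mutant comparison.

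Genes with the nearest pattern were sought by the Euclidean distance between their pairs of differences from control, over these 3 arrays and 8583 genes over the pooled 75th percentile (log2 7.59) in at least 1 array. The differences were floored, so a distance from a gene with bounds depends on the floor. Nearest to ABCA1 were C9orf85 (distance 0.08), KCTD12 (0.31) and CD24 (0.32). For ABCA1 the floored difference of wild-type JMJD3 from control, -1.11, is a bound, and it was -1.80 without the floor. C9orf85 was over the floor in all arrays. ABCG1 had PI15 (0.24), SPINK13 (0.38) and SHANK2 (0.39) nearest to it. Both differences of ABCG1 from control are bounds, and PI15 was under the floor in wild-type JMJD3 (3.80) and in control (3.97). For ABCA5 they were KIAA1958 (0.17), GRB14 (0.22) and GOLGA8A (0.29), and for ABCB1 they were ALDOC (0.16), MUC12 (0.28) and PFKFB4 (0.31). A pattern over 3 arrays has only 2 free differences, so likeness here is a description of these arrays.

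Of 34 other family genes on the array, 19 were over the floor in at least 1 array. Of all measured genes, 2.26% passed 2-fold in wild-type JMJD3 against control and 3.52% in mutant JMJD3 against control. Between the JMJD3 arrays 8.81% did so. None of the 19 reached 2-fold in either comparison with control, and 1 did so between the JMJD3 arrays. This was ABCF2, a soluble family member without membrane domains, at log2 9.20 in the wild-type JMJD3 line, 8.08 in the mutant JMJD3 line and 8.55 in control, 2.17-fold higher in wild-type than in mutant JMJD3. The 19 ranged from -0.71 to 0.79 in wild-type JMJD3 against control and from -0.81 to 0.25 in mutant JMJD3 against control. Their medians were 0.09 and 0.00. ABCB6, a porphyrin transporter, was the lowest in the mutant comparison, at 9.47 in the wild-type JMJD3 line and 8.54 in the mutant JMJD3 line against 9.35 in control. The 1 other measured probe set of ABCB6 was not below control in the mutant JMJD3 line. ABCC10, another multidrug resistance-associated protein, was the highest in the wild-type comparison, at 8.67 and 7.97 against 7.88. ABCE1, a ribosome recycling factor, was lowest there, at 9.44 and 9.96 against 10.15. ABCG5 and ABCG8, which together export plant and animal sterols in liver and gut, were under the floor in all arrays, as was ABCG4. These names were picked as the extremes after the values were seen.

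**Figure D4:**
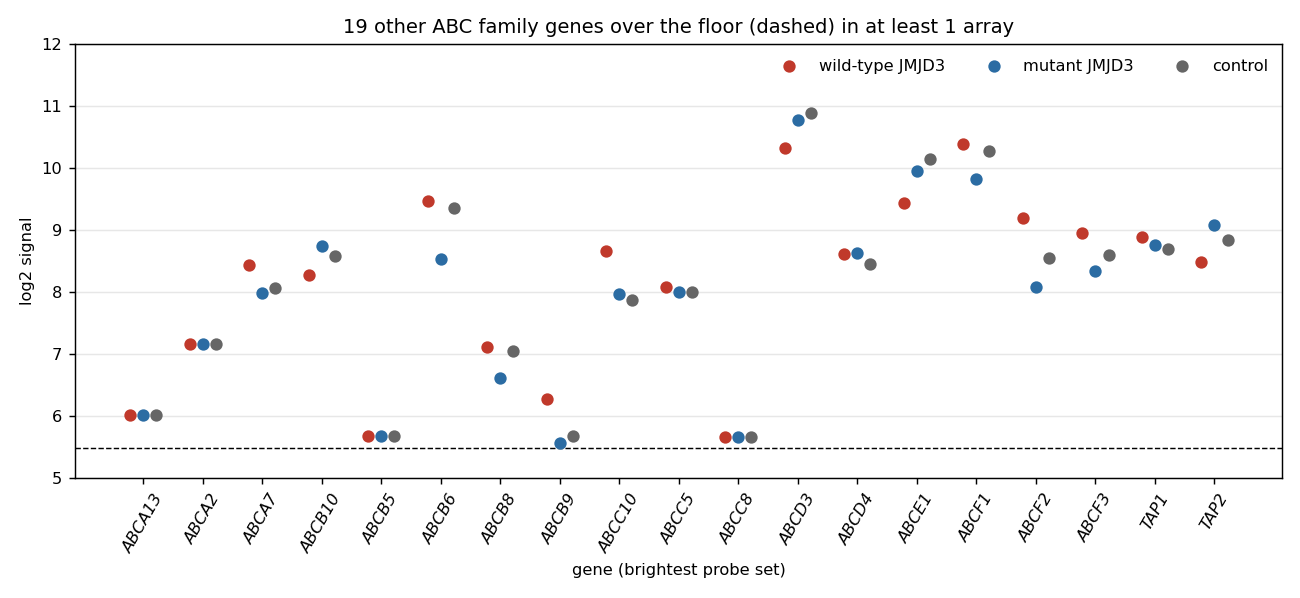
Log2 signal (y axis) of the 19 other ABC family genes over the floor (dashed) in at least 1 array, at their brightest probe set, in the wild-type JMJD3, mutant JMJD3 and control arrays (red, blue and grey points, left to right). The 3 points of a gene lie within 2-fold of each other except for ABCF2, at 9.20 in the wild-type JMJD3 line and 8.08 in the mutant JMJD3 line.

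Of 21 measured sterol and LXR genes, 0 were higher and 2 lower by 2-fold in wild-type JMJD3 against control, and 0 passed 2-fold in mutant JMJD3 against control. Among all measured genes 0.953% were higher and 1.31% lower in the first comparison, and 2.98% and 0.535% in the second. The medians of the 21 were 0.17 and 0.00, beside 0.05 and 0.00 for all genes. NR1H3, which encodes LXR alpha, read log2 9.64 in the wild-type JMJD3 line, 9.49 in the mutant JMJD3 line and 9.35 in control, and its partner RXRA read 9.44, 9.40 and 9.27. MYLIP, an LXR target that marks the low-density lipoprotein receptor for degradation, read 7.06, 8.46 and 7.47 in the same order. It was 1.99-fold higher in the mutant JMJD3 line than in control and 2.64-fold lower in the wild-type line than in the mutant line, which was -0.54 on the log2 scale with the median over its 6 probe sets. SREBF1, another LXR target and a regulator of fatty acid synthesis, was highest in the wild-type JMJD3 line, at 10.03, 8.98 and 9.65, and SCD, a desaturase, read 12.41, 12.28 and 12.64. Thus MYLIP and SREBF1 lay on opposite sides of control in the mutant array at their brightest probe sets. Of the 5 other measured MYLIP probe sets 4 were above control there. The 1 other measured SREBF1 probe set was not below control, so this contrast rests on 1 SREBF1 probe set.

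OSBPL6, an oxysterol-binding protein relative, had the order of ABCA1, at log2 5.12 in the wild-type JMJD3 line, 7.35 in the mutant JMJD3 line and 6.67 in control. It was at least 2.28-fold lower in the wild-type JMJD3 line than in control and at least 3.66-fold lower than in the mutant JMJD3 line. The first was, as a bound, -0.50 under a floor at the 60th percentile, and -0.88 under the offset. The second was -0.31 with the median over its probe sets. STARD4, a carrier of sterols between membranes, was 2.06-fold lower in the wild-type JMJD3 line than in control (8.17 and 8.84 in wild-type and mutant JMJD3, 9.21 in control), and under 2-fold with the offset (-0.94). GRAMD1B, which moves sterol from the plasma membrane inward, was 1.88-fold higher in the mutant JMJD3 line than in control. The acceptor apolipoprotein gene APOE read 7.57, 7.41 and 7.22, and APOA1 was under the floor in all arrays.

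Cholesterol synthesis and uptake genes controlled by SREBP2 were lower in the mutant JMJD3 line, the array in which ABCA1 and ABCG1 were highest. Of 17 measured genes, 16 were below control and 4 of them by 2-fold or more, with a median of -0.59. Of all measured genes 41.2% were below control and 0.535% lower by 2-fold, and their median was 0.00. HMGCS1, which makes the precursor of mevalonate, read 9.83 in the wild-type JMJD3 line, 9.57 in the mutant JMJD3 line and 10.83 in control. The others past 2-fold were SQLE, MSMO1 and EBP, and EBP was under 2-fold without shared probe sets (-0.81). With wild-type JMJD3 against control, 10 of the 17 were above and 7 below, with a median of 0.05 in the list and in all measured genes. HMGCS1 was 2-fold lower there at the exact threshold, and under it with arrays scaled to one median (-0.98). The list was partly chosen from genes already seen to be lower in the mutant JMJD3 line, and its direction is no independent evidence.

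Regulators known to act on drug transporter genes were mostly above control in the mutant JMJD3 line, 17 of 22 measured genes, where 45.9% of all measured genes were above control. Their median was 0.35, beside 0.00 for all genes. Of the 22, 3 were higher by 2-fold or more, where 2.98% of all genes were. PPARG, a nuclear receptor of fatty acid metabolites, read log2 7.46 in the wild-type JMJD3 line and 7.90 in the mutant JMJD3 line against 6.04 in control, so both JMJD3 arrays were above control, 2.68-fold and 3.63-fold. The wild-type value was 0.999 on the log2 scale with the offset, just under 2-fold. EPAS1, a hypoxia-inducible factor, read 12.01 and 12.37 against 11.26, and was 2.16-fold higher in the mutant JMJD3 line. PPARGC1A, a coactivator of nuclear receptors, read 6.88 in the wild-type JMJD3 line, 8.75 in the mutant JMJD3 line and 7.71 in control. It was 2.06-fold higher in the mutant JMJD3 line than in control, but on the log2 scale 0.99 with quantile normalization, 0.90 with the offset and 0.53 with the median over its 2 probe sets, all under 2-fold. AHR, the dioxin receptor known to induce ABCG2, read 8.76, 9.59 and 9.88, and was 2.17-fold lower in the wild-type JMJD3 line than in control. NFE2L2, which encodes NRF2, an inducer of ABCC genes, read 11.37, 11.98 and 11.91. In wild-type JMJD3 against mutant JMJD3, 1 of the 22 was higher and 6 were lower by 2-fold or more, around a median of -0.48, where 2.61% of all measured genes were higher and 6.2% lower around a median of 0.00. Of the 6, BACH1 (-0.995) and FOXO1 (-0.925) were under 2-fold with the offset, and FOXO1 (-0.66) and PPARGC1A (-0.94) with the median over probe sets. HIF1A (-1.09) and MYC (-1.02), also among the 6, lay outside the rule for named genes, and no alternative is given for them. KEAP1, the inhibitor of NRF2, was the higher one, at 2.14-fold, and under 2-fold with the offset (0.98).

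**Figure D5:**
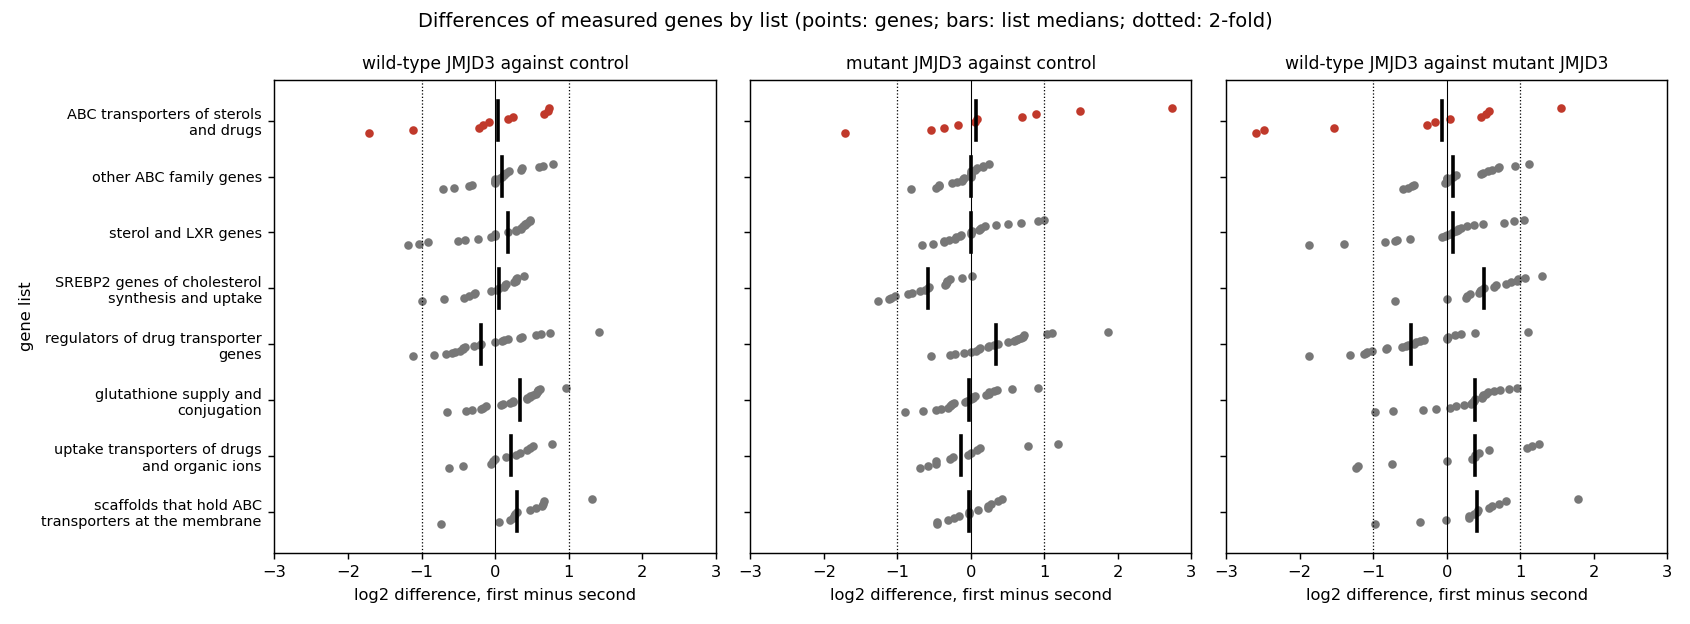
Floored log2 differences (x axis, first array minus second) of the measured genes of 8 lists (y axis) in the 3 comparisons, with a point for each gene, a black bar at the list median and dotted lines at 2-fold. The 10 transporter genes (red) spread from -1.71 to 2.73 in mutant JMJD3 against control around a median of 0.07, while the SREBP2 genes lie to the left of 0 there with a median of -0.59.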

How the data were processed

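Total RNA of 3 stable PANC-1 lines was biotinylated and put on 1 Affymetrix array each, per the labels' protocols. The deposited values are log2 signals from 2.42 to 14.94 with 2 decimals. MAS5 is named, without settings, per the submitters' processing notes. Scaling between arrays and detection calls are not given in the sources used here. The sorted columns differed by at most 0.14. Of 54613 probe sets, 41091 had 1 gene symbol in the platform annotation, 1801 had several and were left unnamed, and 11721 were not listed; 41037 gene identifiers matched RefSeq. Steps were checked on simulated data.

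The number of arrays limits the precision, and with 1 array per group no test was run. The members, lists and the rule for named genes were chosen with earlier results of these data known. The rule takes all members, other ABC genes past 2-fold in any comparison, up to 5 genes of each other list with the largest difference in each comparison, KDM6B, and for each member past 2-fold the 3 genes of nearest pattern. Further genes named were chosen after their values were seen. The lists were other ABC genes, sterol and LXR genes, SREBP2 genes, regulators, glutathione genes, uptake transporters and scaffolds, and list genes without a named probe set were not analysed here. The spacing of the LXR motif was corrected by 1 base after the first search, in which the longer form, with 6 bases between GGTNA and GGTCA, matched 0 of the 12 member windows. The tools were Python 3.11.15, pandas 2.3.3, numpy 2.4.6 and, for figures, matplotlib 3.10.9. The 8 alternatives tried were quantile normalization, scaling to one median, a floor at the 40th or at the 60th percentile, no floor, an offset of the pooled median signal, dropping shared probe sets, and the median over probe sets.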

Additional observations from a re-analysis of the deposited data

How the results depend on the processing

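The 10 genes, 3 comparisons and 8 alternatives made 240 recomputed differences, of which 7 gave no value because both arrays were at or under the floor (in ABCA1, ABCC4 and ABCG1). Of the other 233, 217 kept their sign and their side of 2-fold, 8 fell under 2-fold, 8 changed sign or became 0.00 without ever being past 2-fold, and 0 past 2-fold turned round. Much of this agreement was fixed in advance. For ABCA3, ABCA5, ABCB1, ABCC1, ABCC2, ABCC4 and ABCG2, all arrays were over every floor tried at a brightest probe set without shared probes. Changing or removing the floor, or dropping shared probe sets, therefore returned the main value. Median scaling and quantile normalization could move little, because the sorted columns differed by at most 0.14. In wild-type JMJD3 against control, the 2 genes lower by 2-fold became 1 under a floor at the 60th percentile and 1 under the offset (ABCA5 remained), and 0 with the median over probe sets. That median also left 1 higher gene (ABCG1) and 0 lower in mutant JMJD3 against control, and 0 higher and 1 lower (ABCG1) in wild-type against mutant JMJD3. For ABCA1, ABCA5 and ABCB1 these medians take in probe sets that were dim or nearly level in all arrays. No paired analysis was possible because each group has 1 array. Precision is limited by 1 array per line, and dim signals give bounds.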

Other observations

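Genes that supply or use glutathione, the partner of many ABCC substrates, held no 2-fold difference in any comparison among 22 measured, at their brightest probe sets. Of all measured genes, 2.26% passed 2-fold in wild-type JMJD3 against control and 3.52% in mutant JMJD3 against control. Between the JMJD3 arrays 8.81% did so. With wild-type JMJD3 against control 16 of the 22 were above and 6 below, where 54.4% of all measured genes were above, and the median was 0.35 on the log2 scale, beside 0.05 for all. MGST3, a microsomal glutathione transferase, read log2 13.10 in the wild-type JMJD3 line, 12.38 in the mutant JMJD3 line and 12.14 in control. With mutant JMJD3 against control the median was -0.03, and GCLC, the catalytic subunit of the rate-limiting enzyme of glutathione synthesis, was 1.85-fold lower. SLC7A11, the cystine importer, read 9.22 in the wild-type JMJD3 line, 10.20 in the mutant JMJD3 line and 9.88 in control. With the median over probe sets SLC7A11 passed 2-fold in wild-type JMJD3 against control (-1.16) and against mutant JMJD3 (-1.32), and GSS, glutathione synthetase, did so against mutant JMJD3 (1.01).

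Uptake transporters of drugs and organic ions had 12 measured genes, with medians of 0.22 in wild-type JMJD3 against control and -0.14 in mutant JMJD3 against control, beside 0.05 and 0.00 for all measured genes. SLCO2A1, a prostaglandin importer, was 2.27-fold higher in the mutant JMJD3 line than in control. It read log2 5.68 in the wild-type JMJD3 line, 6.91 in the mutant JMJD3 line and 5.73 in control. Under a floor at the 60th percentile the difference of mutant JMJD3 from control was, as a bound, 0.74 on the log2 scale. SLC22A4, an ergothioneine and carnitine transporter, was 2.38-fold higher in the wild-type line than in the mutant line (9.48 and 8.23, with 8.70 in control). In that comparison SLC22A4, SLCO3A1 and SLC19A1 were the 3 genes higher by 2-fold or more, and SLCO2A1 and SLC46A3 the 2 lower. Of all measured genes 2.61% were higher and 6.2% lower there. The list median was 0.385, beside 0.00 for all. SLCO3A1, SLC19A1 and SLCO2A1 each fell under 2-fold there with at least 1 alternative.

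The list of scaffolds that hold transporters at the membrane had 13 measured genes, and 12 were above control in the wild-type JMJD3 line, around a median of 0.30. Of all measured genes 54.4% were above control there, around a median of 0.05, and 0.953% were higher by 2-fold. PDZK1IP1 was the 1 gene of the list higher by 2-fold, at 2.50-fold (8.0 in the wild-type JMJD3 line, 6.22 in the mutant JMJD3 line, 6.68 in control). It encodes a small membrane protein that binds the scaffold PDZK1 and is not itself a scaffold. PDZK1 was under the floor in all arrays, at 4.72 in both JMJD3 arrays and 4.68 in control, as was the scaffold gene NHERF2. RDX, radixin, which ties ABCC2 to actin in liver, was the one below control, 1.67-fold lower in the wild-type JMJD3 line. In mutant JMJD3 against control the median of the list was -0.02, and none of its genes reached 2-fold, where 3.52% of all measured genes did.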
